A study of Saccharomyces cerevisiae with 6 samples.

Results

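The 5' external transcribed spacer (5'ETS) is the leading segment of the 35S pre-rRNA of the yeast Saccharomyces cerevisiae, the long precursor from which 18S, 5.8S and 25S rRNA are cut, and its second part runs from A279 to U700. It was taken by position alone. It holds 422 of the 6858 nucleotides of the transcript, begins 1 nucleotide before the site that pairs with the 3' hinge of the U3 snoRNA, and ends at cleavage site A1, where 18S rRNA begins in the deposited annotation. Numbering starts with 1 at the first base of the transcript, which the files name RDN37-1 and which RefSeq places on chromosome XII.

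Particles were purified through TAP-tagged Mrd1 and treated with 1M7, a reagent that acylates the 2'-hydroxyl of flexible nucleotides so that reverse transcriptase stops beside them (SHAPE). The strain called the mrd1 mutant here (D5 in the deposited table) had mrd1-deltaRDB5-TAP::K.I.TRP1 and, as a second construct, pGAL-HA-MRD1::URA3 in the background BY4741, represented by 2 libraries treated with 1M7 and 2 treated with the solvent DMSO. The labels give 1 DMSO and 1 1M7 library of this strain the same 5' barcode, and the merged values do not show whether their reads were kept apart. The Erb1-depleted strain (DErb1) had GAL::3HA-ERB1::KAN and also MRD1-TAP::URA3 in BY4741, represented by 2 libraries treated with 1M7, and no DMSO library is labelled for it. Both strains carry a gene under a galactose promoter, and the labels name growth at 30ºC in YPD or YPG/R without tying a medium to a library. No strain had neither change, so loss of the domain (read here as RNA-binding domain 5) and depletion of Erb1 cannot be told apart.

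The U3 snoRNA holds the early small-subunit precursor together by pairing with the 5'ETS through its 5' and 3' hinges and with 18S through its box A sequences. These contacts must be undone before the small subunit can mature. Mrd1 is an RNA-binding protein of this precursor, and Erb1 acts in the large-subunit pathway. The series title poses the question of whether rearrangements of U3 and the pre-rRNA require Mrd1. The 5'ETS is cut at A0 and at A1 and then degraded.

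The table gives each strain 1 raw reactivity score, 1 normalized reactivity score (the raw score times a factor per strain, with negative values set to 0) and 1 posterior probability of modification per nucleotide. Libraries of a strain are merged, so no difference could be set against the spread between replicates, no test was made, and the depth behind each value is unknown. A nucleotide is called modified at a posterior of at least 0.95. Of the 422 nucleotides, 418 have a raw score in both strains and all have both posteriors.

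The sequences around both hinge sites carry the main difference, so each stretch is printed 3 times. Capitals first mark the U3 pairing site, then the nucleotides modified in mrd1 mutant cells, then those modified in Erb1-depleted cells.
5'ETS A279 to U340, U3 3' hinge site: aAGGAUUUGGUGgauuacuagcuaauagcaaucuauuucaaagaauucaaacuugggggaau
5'ETS A279 to U340, modified in mrd1 mutant cells: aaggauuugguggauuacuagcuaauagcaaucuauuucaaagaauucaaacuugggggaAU
5'ETS A279 to U340, modified in Erb1-depleted cells: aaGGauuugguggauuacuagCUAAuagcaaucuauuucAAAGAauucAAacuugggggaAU
5'ETS 460 to 490, U3 5' hinge site: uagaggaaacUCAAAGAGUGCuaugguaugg
5'ETS 460 to 490, modified in mrd1 mutant cells: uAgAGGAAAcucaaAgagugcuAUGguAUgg
5'ETS 460 to 490, modified in Erb1-depleted cells: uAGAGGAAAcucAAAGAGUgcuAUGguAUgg

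In mrd1 mutant cells 25 of the 422 nucleotides were modified (5.92%, Wilson 95% interval 4.05 to 8.60), and in Erb1-depleted cells 42 were (9.95%, interval 7.45 to 13.2). Over the transcript 18.5% of nucleotides were modified in mrd1 mutant cells and 21.1% in Erb1-depleted cells, so the share of modified nucleotides was lower in the second part of the 5'ETS in both. The mean normalized score went the other way, at 0.297 against 0.249 over the transcript in mrd1 mutant cells and 0.346 against 0.257 in Erb1-depleted cells. The intervals take each nucleotide as independent and leave out any spread over libraries. The strains shared 21 modified nucleotides, 4 were modified in mrd1 mutant cells alone and 21 in Erb1-depleted cells alone, and 376 were modified in neither. Over the transcript 3.54% of nucleotides were modified in mrd1 mutant cells alone and 6.09% in Erb1-depleted cells alone. The first part of the 5'ETS, nucleotides 1 to 278, had 26 modified nucleotides in mrd1 mutant cells and 31 in Erb1-depleted cells, of which 5 and 10 were found in that strain alone.

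Nucleotides modified in both strains had similar mean scores in each, but single nucleotides differed. Their mean normalized score was 1.55 in mrd1 mutant cells and 1.41 in Erb1-depleted cells. Over the transcript the 988 shared nucleotides had means of 0.856 and 0.838. The Pearson r of raw scores between strains was 0.385 for the 21 shared nucleotides and 0.829 for the 988. Among the 21, A474 had normalized scores of 1.15 in mrd1 mutant cells and 2.18 in Erb1-depleted cells. The 21 nucleotides modified in Erb1-depleted cells alone had means of 0.457 in mrd1 mutant cells and 1.23 in Erb1-depleted cells. They were chosen by the posterior, so this gap is a description. Raw scores had a Pearson r of 0.872 between strains over the 418 nucleotides, which are not independent replicates and may share control libraries.

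**Figure D1:**
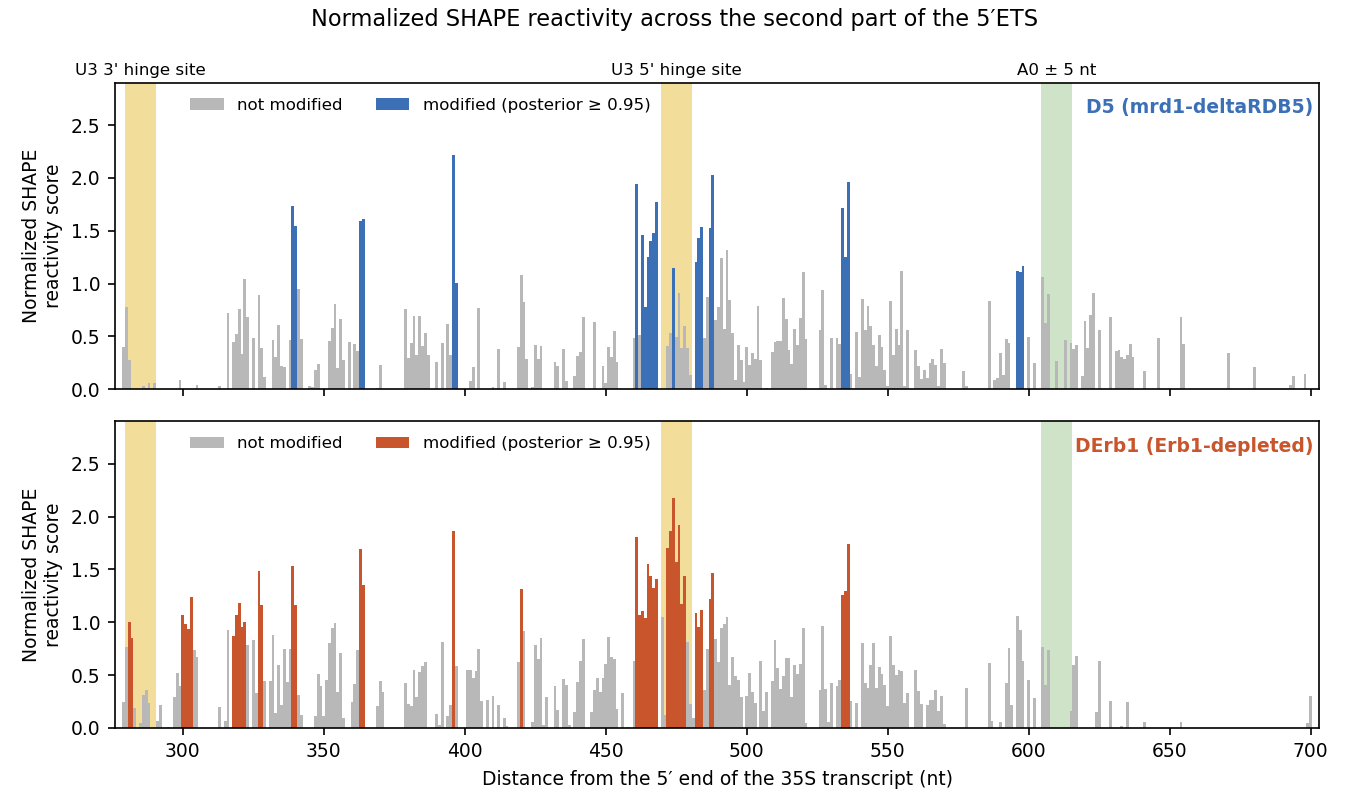
Normalized SHAPE reactivity score (vertical axis) of each nucleotide against its distance from the first base of the transcript in nt (horizontal axis), for mrd1 mutant cells (D5, top) and Erb1-depleted cells (DErb1, bottom). Each bar is 1 nucleotide with 1 value per strain and no error bar, coloured where the posterior reaches 0.95. Coloured bars between A279 and A328, and in the shaded U3 5' hinge site, are mostly those of Erb1-depleted cells.

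The site that pairs with the U3 5' hinge, U470 to C480, had lower scores in mrd1 mutant cells than in Erb1-depleted cells. Of its 11 nucleotides, 1 was modified in mrd1 mutant cells and 7 in Erb1-depleted cells. The mean normalized score was 0.456 in mrd1 mutant cells and 1.28 in Erb1-depleted cells, above the means of the whole second part (0.297 and 0.346) in both, and the range was 0 to 1.15 in mrd1 mutant cells and 0.117 to 2.18 in Erb1-depleted cells. The mean raw score, which keeps negative values, was 0.0675 and 0.293. A474 had 1.15 in mrd1 mutant cells and 2.18 in Erb1-depleted cells, the highest normalized score of Erb1-depleted cells in the second part, and it alone was modified in both strains.

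The gap was wide on the adenosines at the start of the site and on the bases after A474. A473 had normalized scores of 0.535 in mrd1 mutant cells and 1.86 in Erb1-depleted cells. A472 had 0.414 and 1.70. A476 had 0.909 and 1.92, and its posterior was 0.00193 in mrd1 mutant cells. The other modified bases of the site, G475, G477 and U478, had scores from 0.392 to 0.603 in mrd1 mutant cells and from 1.17 to 1.57 in Erb1-depleted cells. The site's outer bases were modified in neither strain. U470 went from 0 in mrd1 mutant cells to 1.05 in Erb1-depleted cells and its posterior of 0.935 fell just short of the threshold. C471 had 0 and 0.117, G479 0.386 and 0.814, and C480 0.134 and 0.224. Raw scores, which are not cut at 0, were -0.0155 and 0.242 at U470 and -0.204 and 0.0270 at C471.

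On normalized scores the modified blocks on either side of the site did not share this gap. Each block was bounded by nucleotides modified in mrd1 mutant cells, a choice made after the values were seen. The high scores of mrd1 mutant cells in the blocks follow in part from that choice. Upstream, A461 to A468 formed a block in which 7 of 8 nucleotides were modified in mrd1 mutant cells and 8 of 8 in Erb1-depleted cells, with mean normalized scores of 1.32 and 1.34. A461 had 1.94 and 1.81, and A468, the last of the block, 1.78 and 1.40. In that block G462 was modified in Erb1-depleted cells alone (0.511 in mrd1 mutant cells and 1.06 in Erb1-depleted cells). On unsmoothed raw scores A463 (0.280 against 0.254) and A468 (0.341 against 0.323) were higher in mrd1 mutant cells and the others of the block in Erb1-depleted cells, so its comparison depends on the scale. G464 was close to the threshold in mrd1 mutant cells, with a posterior of 0.962. Downstream, A482 to U488 held 5 modified nucleotides in each strain, the same 5, with means of 1.30 in mrd1 mutant cells and 0.99 in Erb1-depleted cells. Among them U483 had 1.43 and 0.95. In Erb1-depleted cells modification thus ran through the site from A461 to A468, from A472 to U478 and on to U488. In mrd1 mutant cells the site lay between modified blocks with A474 as its only modified nucleotide.

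**Figure D2:**
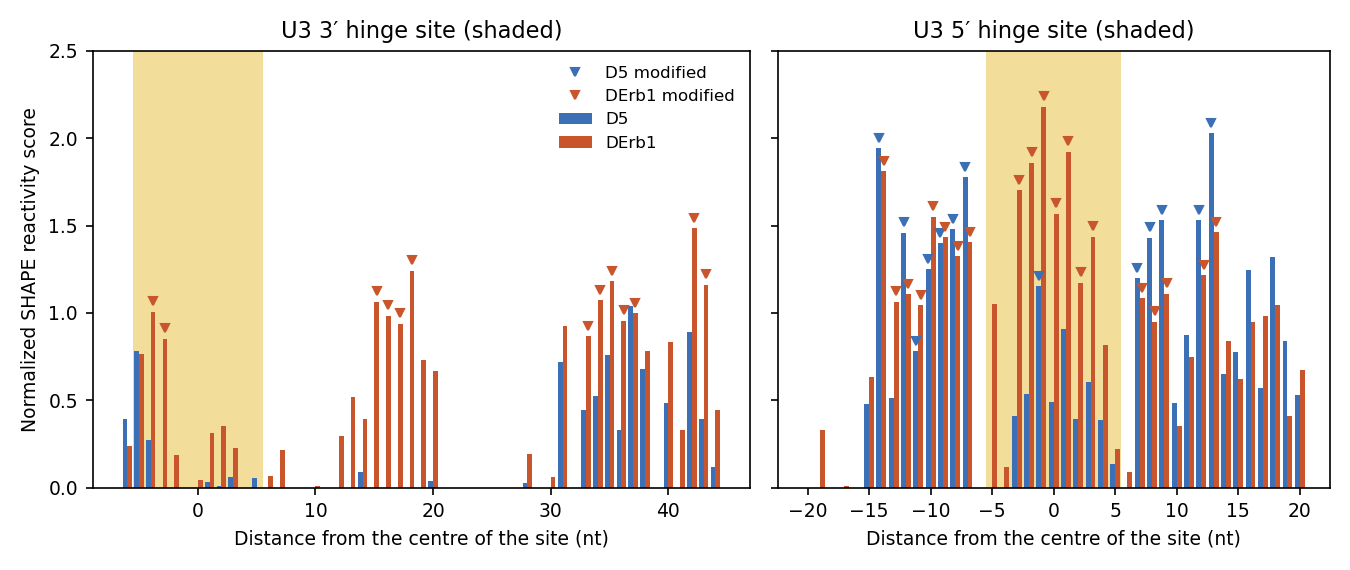
Normalized SHAPE reactivity score (vertical axis) of mrd1 mutant cells (D5, blue) and Erb1-depleted cells (DErb1, orange) against the distance in nt from the centre of the U3 3' hinge site (left) and the U3 5' hinge site (right), both shaded. Bars are single values without error, and triangles mark nucleotides modified in that strain. In the 5' hinge site 7 of 11 orange bars and 1 of 11 blue bars carry a triangle, while the flanks carry triangles of both colours.

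The site that pairs with the U3 3' hinge, A280 to G290, was less reactive than the 5' hinge site in both strains, and its modified nucleotides were a pair of guanosines near its start. Of its 11 nucleotides, 0 were modified in mrd1 mutant cells and 2 in Erb1-depleted cells. G281 had normalized scores of 0.274 in mrd1 mutant cells and 1.01 in Erb1-depleted cells. G282 had 0 and 0.854. A280 had 0.780 and 0.765 and was modified in neither. From A283 to G290 scores were low in both, from 0 to 0.0629 in mrd1 mutant cells and from 0 to 0.354 in Erb1-depleted cells. Over the site the mean was 0.111 in mrd1 mutant cells and 0.341 in Erb1-depleted cells.

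The stretch from A279 to A338, which takes in the whole 3' hinge site, was modified in Erb1-depleted cells alone. Of its 60 nucleotides, 0 were modified in mrd1 mutant cells and 13 in Erb1-depleted cells (21.7%). Over the transcript 18.5% were modified in mrd1 mutant cells and 21.1% in Erb1-depleted cells. The share in Erb1-depleted cells was thus near its background. The stretch was ended before the first nucleotide modified in mrd1 mutant cells, a bound chosen after the values were seen. The 0 thus follows from the choice of bounds, and no interval is given. The mean normalized score of the 60 nucleotides was 0.174 in mrd1 mutant cells and 0.444 in Erb1-depleted cells. The 13 fell into 4 runs, namely both guanosines of the 3' hinge site (already given above), C300 to A303, A318 to A322, and A327 with A328.

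The run from C300 to A303 had no normalized reactivity in mrd1 mutant cells. All 4 nucleotides had a score of 0 there and negative raw scores, from -0.0881 at U301 to -0.0165 at A303. In Erb1-depleted cells their normalized scores were 1.06 at C300, 0.983 at U301, 0.939 at A302 and 1.24 at A303. C300 was the only modified cytidine of the second part in either strain, out of 71 cytidines. On its 3' side U304 and A305 also stood higher in Erb1-depleted cells (0.733 and 0.668, against 0 and 0.0385 in mrd1 mutant cells) but were not modified.

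The adenosine-rich runs further on were partly reactive in mrd1 mutant cells too. A320 had normalized scores of 0.760 in mrd1 mutant cells and 1.18 in Erb1-depleted cells. A322 had 1.04 and 0.998, and its posterior in mrd1 mutant cells, 0.908, lay just under the threshold, so this nucleotide differs in its call more than in its score. A318, A319 and G321 had scores from 0.330 to 0.526 in mrd1 mutant cells and from 0.867 to 1.07 in Erb1-depleted cells. A327 had 0.890 and 1.48, and A328 had 0.393 and 1.16. The scores of mrd1 mutant cells in these runs thus lay above 0. Those of C300 to A303 were negative raw scores set to 0, so the contrast between the runs depends on that floor.

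From A339 to C469 the strains shared most of their modified nucleotides. In mrd1 mutant cells 13 of these 131 nucleotides were modified and in Erb1-depleted cells 14, with 12 shared. The start, A339, is the first nucleotide modified in mrd1 mutant cells, so this bound was chosen after the values were seen. Sharing was also common over the transcript, with 988 shared among 1221 modified in mrd1 mutant cells and 1389 in Erb1-depleted cells. A396 had the highest normalized score of mrd1 mutant cells in the second part, 2.21, and 1.87 in Erb1-depleted cells. A339 had 1.73 and 1.53, A363 1.59 and 1.69, and A364 1.61 and 1.36. U340 had 1.55 and 1.16. Next to A396, A397 was modified in mrd1 mutant cells alone, with 1.01 against 0.587. U420 was modified in Erb1-depleted cells alone, with 1.32 against 1.08, and its posterior in mrd1 mutant cells, 0.933, was again just under the threshold. Between U421 and U460 no nucleotide was modified in either strain.

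The strains were then compared through the raw scores, since normalized scores hide negative values. The standardized difference is the raw score of mrd1 mutant cells minus that of Erb1-depleted cells, each smoothed over 3 nt, with the difference centred and divided by its SD over the transcript, so that a negative value means a higher score in Erb1-depleted cells. A nucleotide was called where this reached at least 1 in size at 3 or more of 5 adjacent nucleotides and the authors' Z-factor was above 0, and it was counted where it was modified in at least 1 strain. Called and modified were 24 nucleotides of the second part, 0 higher in mrd1 mutant cells and 24 higher in Erb1-depleted cells. Over the transcript 5.96% of measured nucleotides were called and modified, 0.810% higher in mrd1 mutant cells and 5.15% higher in Erb1-depleted cells. The total for the second part, 5.74%, is near that background. Of the 24 calls, 9 lay at the 22 nucleotides of the hinge sites, 11 from C300 to A328, 4 from A461 to A466 and 0 beyond U478. Smoothing and the need for 3 of 5 adjacent nucleotides make calls come in groups. Their grouping elsewhere in the transcript was not compared.

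The 5 largest standardized differences toward Erb1-depleted cells, at most 1 per 5 nt, were those of A473 (-4.70), A302 (-4.51), G282 (-2.70), U478 (-2.67) and A327 (-2.47). All 11 nucleotides of each hinge site had negative values. The mean was -3.40 at the 5' hinge site, -1.34 at the 3' hinge site and -0.74 over the stretch between them, where 136 of 177 measured nucleotides were negative. Widened by 5 nt on either side, the 5' hinge site had -1.98, and the 3' hinge site had -0.81 after subtraction of a running median. In windows of 20 nt laid end to end along the transcript, A461 to C480 had a mean of -2.31, the 4th lowest of 327 windows. U301 to A320 had -1.62 and G281 to C300 had -1.32, the 7th and 11th lowest. The highest windows of the second part lay between A0 and A1.

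Of the 24 called nucleotides, 19 were called in the same direction on each of 4 other scales, which were each strain's own normalization factor with negatives kept, equal SD, quantile normalization, and normalized scores with negatives at 0. These 19 include the 7 at the 5' hinge site (A472 to U478), the 2 at the 3' hinge site and the 4 from C300 to A303. The 5 not called on every scale were A322, A461, A463, G465 and A466, and 3 of them (A461, A463 and A466) were called on 0 of the 4 scales. The lack of calls toward mrd1 mutant cells did not hold on these scales. Raw scores spread more widely in Erb1-depleted cells, with an SD over the transcript of 0.150 against 0.124 in mrd1 mutant cells. The raw difference does not take this out. On these 4 scales 5, 5, 4 and 9 nucleotides were called higher in mrd1 mutant cells. How much of the transcript was called on these scales was not counted, so no background stands beside these counts or the 19. U340, U483, G484 and A487 were among them on each scale, with standardized differences from 1.02 to 2.29. The same 4 were called higher in mrd1 mutant cells when a running median was taken out of the unscaled raw difference. What sets these calls was not tested.

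**Figure D3:**
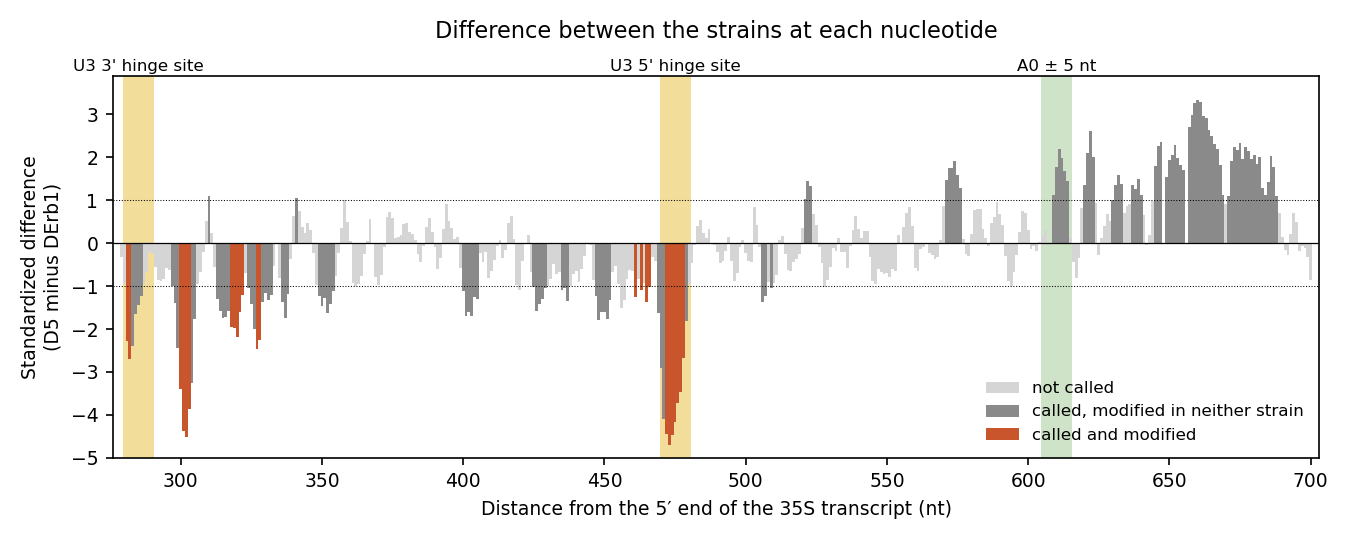
Standardized difference of the smoothed raw scores, D5 minus DErb1 (vertical axis, in SD of that difference over the transcript), against distance from the first base of the transcript in nt (horizontal axis). Orange bars are called and modified in at least 1 strain, dark grey bars are called but modified in neither, light grey bars are not called, and dotted lines mark 1 and -1. The orange bars all point down and lie between G281 and U478, 9 of the 24 within the shaded hinge sites. The dark bars after A0 point up.

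Between the 5' hinge site and A0, from U481 to U604, every nucleotide modified in Erb1-depleted cells was also modified in mrd1 mutant cells. The mrd1 mutant cells had 11 modified nucleotides of 124 and Erb1-depleted cells 8, all 8 shared. On raw scores the mean standardized difference was 0.0018 and 0 nucleotides were called and modified. On the 4 other scales the mean was 0.16 to 0.19, and 3, 3, 3 and 5 nucleotides were called higher in mrd1 mutant cells. No share over the transcript was counted on those scales. U488 had normalized scores of 2.03 in mrd1 mutant cells and 1.46 in Erb1-depleted cells. A536 had 1.96 and 1.74, A534 1.72 and 1.25, and G535 1.25 and 1.29. High scores were not always called modified here. U491 and A493 had 1.24 and 1.32 in mrd1 mutant cells with posteriors of 0.799 and 0.697, and A555 had 1.12 with a posterior of 6.63e-06.

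Shortly before A0 a run was modified in mrd1 mutant cells alone. A596, A597 and A598 had normalized scores of 1.12, 1.11 and 1.16 in mrd1 mutant cells. In Erb1-depleted cells they had 1.06, 0.928 and 0.637, with posteriors of 0.944, 0.235 and 3.88e-09. At A596 the strains thus differed little in score and lay on either side of the threshold, and at A598 they differed in both. None of the 3 was called from the raw scores, where their standardized differences were -0.28, 0.26 and 0.75. With A397 they are the 4 nucleotides modified in mrd1 mutant cells alone.

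The cleavage site A0 was placed at U610, and the sequence around it is printed with 5 nt on either side of it in capitals and then with the nucleotides modified in mrd1 mutant cells in capitals.
5'ETS 590 to 630, A0: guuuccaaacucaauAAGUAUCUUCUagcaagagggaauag
5'ETS 590 to 630, modified in mrd1 mutant cells: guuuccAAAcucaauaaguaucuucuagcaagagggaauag
Of the 11 nucleotides of the A0 window, 0 were modified in either strain. A605 and G607 had the highest normalized scores, 1.06 and 0.904 in mrd1 mutant cells and 0.767 and 0.734 in Erb1-depleted cells. U610 had 0.268 in mrd1 mutant cells and 0 in Erb1-depleted cells, with raw scores of 0.0514 and -0.182. The mean standardized difference of the window was 0.98, with 10 of 11 nucleotides positive, and 0.31 after a running median was taken out.

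From A616 to A1 the second part had low scores in both strains. Of 85 nucleotides 0 were modified in either (interval 0 to 4.32%). The mean normalized score was 0.119 in mrd1 mutant cells and 0.0363 in Erb1-depleted cells. The highest score was 0.911 in mrd1 mutant cells and 0.676 in Erb1-depleted cells. The mean raw score was negative in both, at -0.106 in mrd1 mutant cells and -0.193 in Erb1-depleted cells, against a mean of 0 over the transcript.

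The standardized difference of this stretch leaned toward mrd1 mutant cells, with a mean of 1.35 and 71 of 83 measured nucleotides positive. Without the filter on modification 53 nucleotides were called higher in mrd1 mutant cells and 0 in Erb1-depleted cells, where 13.7% and 11.5% of the transcript were called in these directions. At 55 of the 83 nucleotides both raw scores were below 0, and these made up 76.5% of the summed raw difference. Most of the difference thus lay between a negative score and a more negative one. The mean fell to 0.90 after quantile normalization and 0.52 on normalized scores with negatives at 0. The raw scores of each strain have a mean of 0 over the transcript, so a negative score is one below that mean. Why this stretch lay below it was not tested.

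The largest values of this kind lay on a uridine-rich stretch, printed with its uridines in capitals.
5'ETS A641 to U680, uridines: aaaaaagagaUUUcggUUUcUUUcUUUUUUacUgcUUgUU
The window from U661 to U680, in which 14 of 20 bases are uridines, had a mean standardized difference of 2.14, the highest of the 327 windows of the transcript. Its mean raw score was -0.188 in mrd1 mutant cells and -0.325 in Erb1-depleted cells. A641 to C660 had a mean of 1.88, the 4th highest. C660 had the largest single value of the second part toward mrd1 mutant cells, 3.34, with raw scores of -0.285 in mrd1 mutant cells and -0.503 in Erb1-depleted cells and a normalized score of 0 in both. Among the 5 largest toward mrd1 mutant cells A622 alone had a normalized score above 0 in either strain (0.706 in mrd1 mutant cells). The others were U665 (2.51), G647 (2.36) and C675 (2.34).

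**Figure D4:**
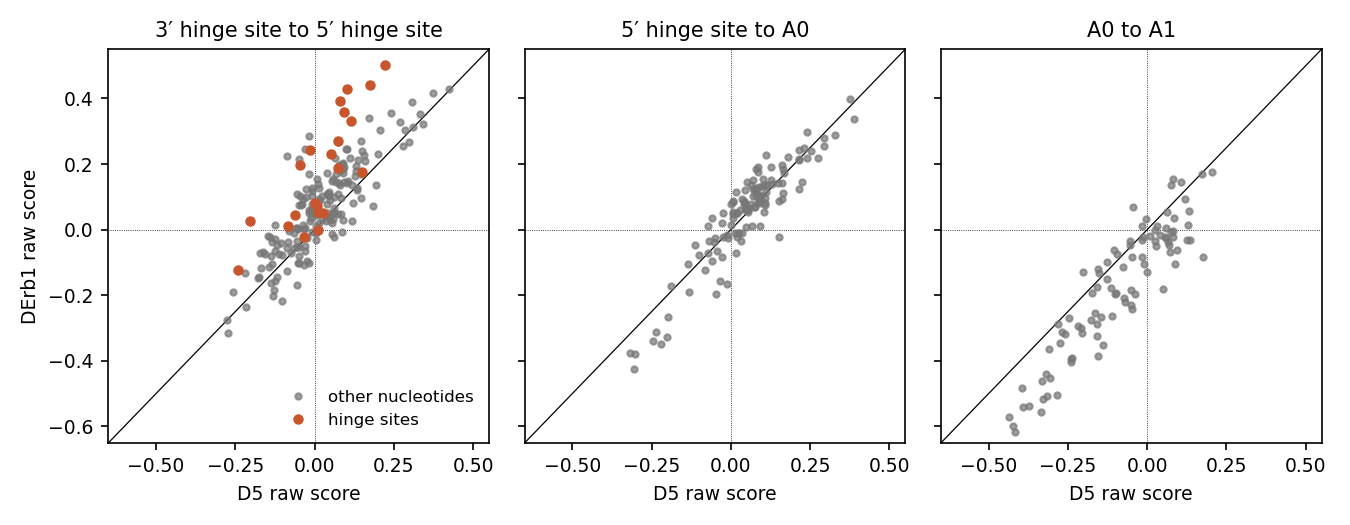
Raw SHAPE score of Erb1-depleted cells (DErb1, vertical axis) against that of mrd1 mutant cells (D5, horizontal axis), 1 point per nucleotide, for the segments from the 3' to the 5' hinge site (left), from the 5' hinge site to A0 (middle) and from the A0 window to A1 (right). The solid line marks equal scores and dotted lines mark 0. Hinge-site points (orange) mostly lie above the line at positive scores, and points of the right panel mostly lie below it at negative scores.

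Adenosines were prominent among the modified nucleotides. They made up 29.9% of the second part, and 18 of the 25 nucleotides modified in mrd1 mutant cells and 25 of the 42 modified in Erb1-depleted cells. Guanosines numbered 4 and 10, uridines 3 and 6, and cytidines 0 and 1. Over the transcript adenosines were 617 of the 1221 nucleotides modified in mrd1 mutant cells and 676 of the 1389 modified in Erb1-depleted cells. Among the 21 nucleotides modified in Erb1-depleted cells alone, 11 were adenosines, 6 guanosines, 3 uridines and 1 cytidine.

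Modification was also set beside a fold predicted from the sequence alone, in which neither U3 nor proteins take part. In the minimum free energy structure of A279 to U700, 122 nucleotides were unpaired and 300 paired. In mrd1 mutant cells 12 of the unpaired were modified (9.84%, interval 5.72 to 16.4) and 13 of the paired (4.33%, interval 2.55 to 7.27). In Erb1-depleted cells 22 of the unpaired were modified (18%, interval 12.2 to 25.8) and 20 of the paired (6.67%, interval 4.36 to 10.1). With both hinge sites kept from pairing in the fold, 23.0% of unpaired and 2.59% of paired nucleotides were modified in Erb1-depleted cells, and 10.5% and 3.33% in mrd1 mutant cells. This setting counts all 22 hinge nucleotides as unpaired, 9 of them modified in Erb1-depleted cells and 1 in mrd1 mutant cells. Part of the change is thus fixed by the setting. Of the 21 nucleotides modified in Erb1-depleted cells alone, 10 were unpaired in the first fold. The fold is a prediction, and its pairs were not measured.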

How the data were processed

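Per the submitters' processing notes Novoalign served as the aligner (version not stated). The values are scores per nucleotide deposited by the authors with 1 column per strain, so the 6 libraries are not told apart and the total count per library is unknown. The sources used here do not say how raw scores arose, or whether DMSO libraries of the mutant served for both strains. Per the file headers, the authors' columns are raw scores, scores normalized by a 2% to 8% rule, BUM_HMM posteriors and a deltaSHAPE comparison, and a marker value stands for insufficient coverage. These entries were dropped (4 raw scores of Erb1-depleted cells).

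The authors' calls were recomputed as scores smoothed over 3 nt, centred and divided by the SD of the difference (0.0649). All 1646 calls over the transcript matched (0 differed), and standardized differences deviated by at most 0.00036. Other scales kept the deposited Z-factor. The running median spanned 101 nt. The calling rule was tested on simulated data without the Z-factor and without the filter on modification, so not in the form reported. In that form it recovered large shifts in the right direction but also called unshifted nucleotides. Its threshold is set by the spread of the data themselves. Folds were made with ViennaRNA 2.7.2, and tables with Python 3.11.15, pandas 2.3.3 and scipy 1.17.1.

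Named are all nucleotides of the hinge sites and the A0 window or their range, all called ones, the 10 most reactive modified ones per strain and the 5 largest differences in each direction (at most 1 per 5 nt). Members and lists were chosen with earlier results of these data known. U3 pairing sites and A0 are placed from general knowledge, not from the files. The U3 sequence was not used here.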

Additional observations from a re-analysis of the deposited data

How the results depend on the processing

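Counts of modified nucleotides stayed within 1.5 times at posteriors of 0.9 (27 in mrd1 mutant cells, 45 in Erb1-depleted cells) and 0.99 (23 and 40). Calls higher in mrd1 mutant cells, 0 as reported, were 70 without the filter on modification, 4 with a running median taken out, 5 with each strain's own factor, 5 at equal SD, 4 with quantiles matched and 9 with negatives at 0. Calls higher in Erb1-depleted cells, 24 as reported, were 81 without the filter, 5 at nucleotides modified in both strains and 13 at a standardized difference of at least 2, because these settings count more or fewer nucleotides, and 18 to 26 under the other alternatives. Apart from the setting without the filter, no share over the transcript was counted for these alternatives. The mean standardized difference of the 3' hinge site was -0.81 with the running median taken out, that of the 5' hinge site -1.98 when widened by 5 nt on either side, and that of the A0 window 0.31 with the running median and 0.54 when widened. From the 5' hinge site to A0 the mean was 0.16 with each strain's own factor, 0.18 at equal SD, 0.19 with quantiles matched and 0.19 with negatives at 0, and it turned to -0.0012 without smoothing and -0.075 as a median, so its direction depends on the setting. From A0 to A1 it was 0.90 after quantile normalization and 0.52 with negatives at 0. With the hinge sites kept unpaired, 2.59% of paired nucleotides were modified in Erb1-depleted cells, in part because that setting moves modified hinge nucleotides to the unpaired. Where not stated above, the cause was not tested. Of 42 named nucleotides, G288 (0.048), U289 (0.63) and G290 (0.56) turned with the running median, G290 (0.024) with negatives at 0, and G290 (0.15) and A463 (0.34) without smoothing. No paired analysis was possible because the libraries of each strain are merged in 1 column, and for the same reason no library could be left out. Depth is unknown, so values near the thresholds cannot be graded by reads.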
